A study of Homo sapiens with 4 samples.

Results

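The genes described here are 10 short noncoding genes that RNA polymerase II (Pol II) transcribes from promoters of their own and whose RNAs end without the poly(A) route. They are the spliceosomal U4 and U5 genes RNU4-1, RNU4-2, RNU5A-1 and RNU5B-1, the U7 gene RNU7-1, the minor spliceosome genes RNU11 and RNU12, the small nucleolar RNA genes SNORD3A and SNORD13, and the telomerase RNA gene TERC. They were chosen by name and are 10 of the 60708 genes of the count table. Of the 10, 8 were found by gene symbol through their Ensembl identifier, and RNU11 and RNU12 by the GRCh38 position that RefSeq gives them. The samples were 4 TT-seq libraries, a method that tags RNA with 4-thiouridine for a short pulse, here 20 min, and sequences the tagged fragments. All 4 came from the human embryonic kidney line HEK293. The cells' own RPB1, the largest Pol II subunit, carried a degron, a tag through which auxin has the protein degraded. Every culture received auxin for 48 h, starting 48 h after transient transfection, and cells without auxin or without a plasmid were not analysed here. In the 52X WT group (2 libraries) the transfected RPB1 had a wild-type C-terminal domain (CTD) of 52 repeats, and in the 52X T4A group (2 libraries) every repeat of that domain had alanine in place of threonine 4.

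Genes for most spliceosomal small nuclear RNAs (snRNAs) and for the U3 and U13 small nucleolar RNAs (snoRNAs) have a proximal sequence element that binds the SNAPc complex. At snRNA genes the Integrator complex, which is recruited through the phosphorylated CTD, cuts the nascent RNA near a 3′ box, and the cap-binding complex and PHAX then take many of these RNAs out of the nucleus for assembly with Sm proteins. U3 and U13 stay in the nucleus as parts of small nucleolar particles, and TERC, an H/ACA-type RNA, is trimmed to its mature end and serves as the template of telomerase. The comparison of T4A with WT therefore asks how the labeled RNA of genes of this kind stood when Pol II lacked threonine 4.

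The 2 U4 genes are close copies, so sequence decides which reads can be given to which copy. The U5 genes were not compared by sequence. The U4 pair is printed 5′ to 3′ as DNA from GENCODE transcripts of the same Ensembl identifiers, and the capitals are the bases at which the 2 copies differ.
RNU4-1: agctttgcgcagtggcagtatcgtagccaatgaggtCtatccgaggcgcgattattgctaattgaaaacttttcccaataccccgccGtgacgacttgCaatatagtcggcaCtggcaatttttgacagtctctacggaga
RNU4-2: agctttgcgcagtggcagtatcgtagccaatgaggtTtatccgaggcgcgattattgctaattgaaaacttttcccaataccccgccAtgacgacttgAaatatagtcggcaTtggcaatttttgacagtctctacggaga
Counted from 1 at the 5′ end, RNU4-2 differs from RNU4-1 by C37T, G88A, C99A and C113T, which is 4 of 141 bases. The longest stretch shared without a difference was 50 bases, from base 38 to base 87. The columns of the count table are named for uniquely aligned reads, so a read that lies wholly in such a stretch could not be counted for either copy. The levels of the U4 genes are uncertain to that extent, and those of the U5 genes are uncertain for reads that match more than 1 copy.

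The libraries held 33188536 to 45605027 counts. The 10 genes together took 7798, 6278, 7812 and 7011 of these counts, between 0.0138% and 0.0231% of a library. Levels are in normalized CPM, counts scaled to a common library size after TMM scaling, and differences are log2 fold changes of T4A over WT with their standard error (SE). The 4 libraries are bulk and scaled to their own totals, so fewer cells making an RNA and less RNA made per cell cannot be told apart. POLR2A, the gene of RPB1, had 9629 and 8710 CPM in the WT libraries and 7484 and 8075 CPM in the T4A libraries, a log2 fold change of -0.24 (SE 0.25, adjusted p = 0.660 by edgeR), and plasmid and endogenous RNA cannot be told apart in it. Of 6 genes fixed as HEK293 markers, 5 passed the filter on low counts, and NEFM, at 0, 6, 4 and 2 counts, did not. The 6 HEK293 markers summed to 386 to 461 CPM, with CDH2 at 271 to 333 CPM but PAX2 at 1.81 to 2.77 and LHX1 at 3.15 to 3.64 CPM. Of 6 genes that mark other cell types 3 passed the filter, and these 6 summed to 3.17 to 4.33 CPM, with COL1A1 at 1.85 to 2.95 CPM. Log2 CPM correlated at 0.991 between the WT libraries and at 0.979 between the T4A libraries, over the 23321 genes tested.

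The 10 genes differed in how many bases they hold alone on their strand and in how many counts they had. RNU4-1, RNU4-2, RNU5A-1, RNU5B-1, SNORD3A and SNORD13, 6 of the 10, share no base with another gene of their strand and had between 299 and 4625 counts in every library. The other 4 overlap a gene on their own strand and had few counts or none. RNU11 had 8 to 13 counts and TERC 7 to 22 counts, while RNU7-1 and RNU12 were at 0 in all 4 libraries. All 63 bases of RNU7-1 lie inside C12orf57 and all 150 bases of RNU12 lie inside ENSG00000270022, and these genes had no base left of their own. RNU11 had 3 bases of its own of 134, and TERC 103 of 541. Over all snRNA and snoRNA rows of the table, 2280 of 2698 (84.5%) were at 0, and the part of position in these counts was not tested.

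**Figure D1:**
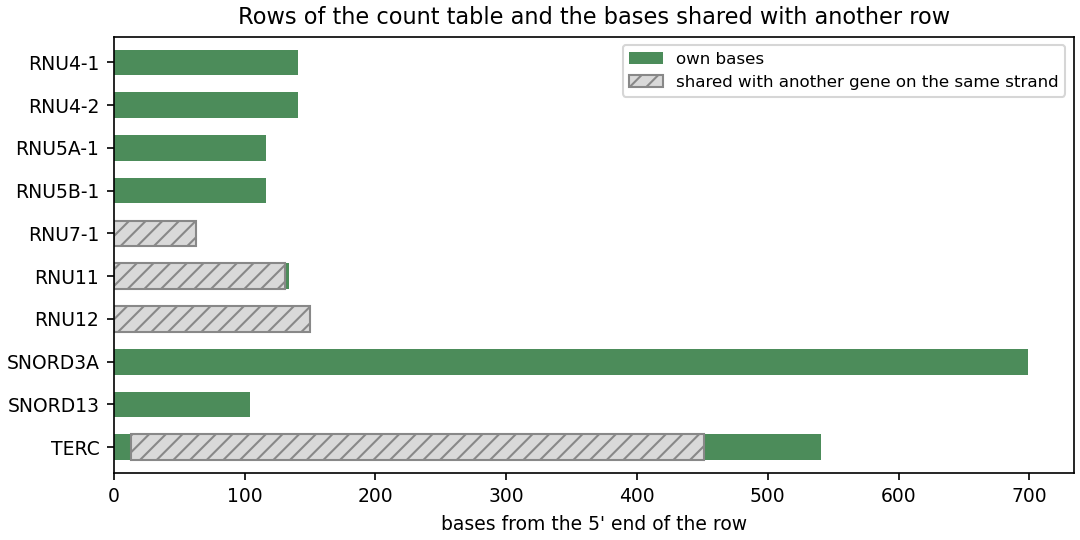
The bars give, from the 5′ end of each gene's row in the count table and in bases, the stretches the row alone holds (solid) and those shared with another gene of its strand (hatched). The 6 genes without shared bases had 299 or more counts in every library, and RNU7-1 and RNU12, with no base of their own, stood at 0.

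Per kilobase of row, the 6 well-counted genes lay close together. The row of SNORD3A has 699 bases and its RNA 217, so its level and its place in the order depend on that row length. In the WT libraries the mean level was highest for RNU4-2 at 160 CPM per kb, followed by SNORD3A at 138, RNU5A-1 at 118, RNU4-1 at 111, SNORD13 at 107 and RNU5B-1 at 90.8 CPM per kb. Each gene's range over the 2 WT libraries overlapped that of the next gene in this order, but WT replicate 1 was the higher for each of them. Within both WT libraries RNU5A-1, RNU4-1, SNORD13 and RNU5B-1 kept the order. They stood at 156, 141, 135 and 123 CPM per kb in replicate 1 and at 80.9, 80.5, 79.1 and 58.4 in replicate 2. SNORD3A did not keep its place: it lay below RNU5A-1 in replicate 1, at 149 CPM per kb, and above RNU4-2 in replicate 2, at 127 against 122. In the T4A libraries the mean was again highest for RNU4-2 at 191 and SNORD3A at 189 CPM per kb, whose ranges overlapped, and then came SNORD13 at 145, RNU5B-1 at 117, RNU5A-1 at 115 and RNU4-1 at 113 CPM per kb. There the ranges of SNORD3A and SNORD13, and those of SNORD13 and RNU5B-1, did not overlap, while those of the last 3 genes did. All 6 stood at or above the 99.8th percentile of CPM per kb among the genes tested. The length of a row is its genomic span with introns, so this percentile sets short rows beside long ones. A rank among short genes alone was not taken. RNU11, at 2.15 CPM per kb in WT and 2.19 in T4A, stood at the 85.0th percentile, and TERC, at 0.791 and 0.673 CPM per kb, at the 61.9th. These levels divide by whole rows of 134 and 541 bases, of which RNU11 holds 3 alone and TERC 103. They may therefore be too low and cannot be set against those of the 6 genes.

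**Figure D2:**
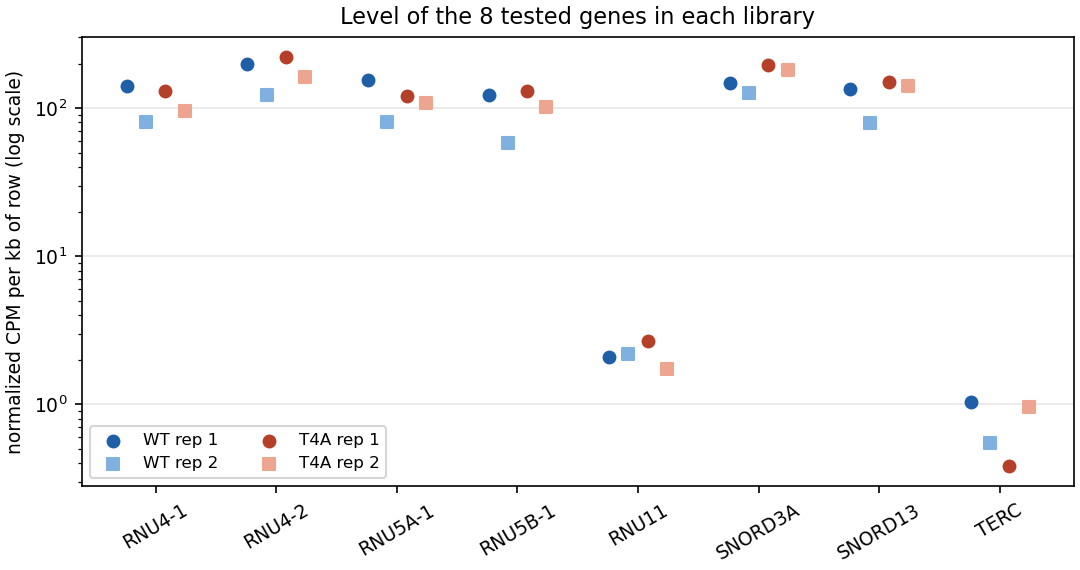
Points are the normalized CPM per kb of row in each library for the 8 genes tested, on a log axis, with WT libraries in blue, T4A libraries in red, replicate 1 as circles and replicate 2 as squares. For SNORD3A and SNORD13 both T4A points lie above both WT points, and for the U4 and U5 genes the T4A points lie within or beside the spread of the WT points.

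No gene of the 10 passed the test between T4A and WT, edgeR's quasi-likelihood test at an adjusted p below 0.05 over all 23321 genes, which called 1 gene in all, or 0.00429%. Of the 10 genes, 8 passed the filter on low counts. At an unadjusted p below 0.05 SNORD3A alone was higher in T4A, 1 of 8 against 7.45% of all genes, and none was lower, against 8.02% of all genes. Both T4A libraries lay above both WT libraries for 2 of the 8, SNORD3A and SNORD13, against 24.8% of all genes, and below them for 0 of the 8, against 24.7%. The shares of genes higher in T4A rest on 1 and 2 genes and are near those of all genes. The median log2 fold change was 0.15 over the 8 genes and 0.31 over the 6 well-counted genes, beside -0.00 over all genes tested. Nothing in the sources says that the 2 libraries of a group came from separate cultures, so the p-values measure only the spread between these libraries.

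**Figure D3:**
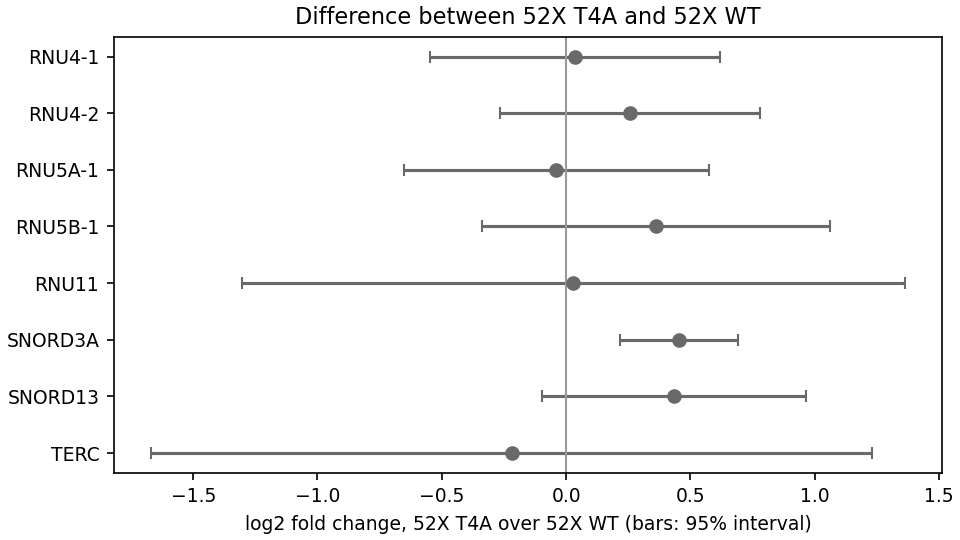
Points are the log2 fold changes of T4A over WT by edgeR for the 8 genes tested, with 95% confidence intervals as horizontal lines and 0 marked. The interval of SNORD3A alone lies above 0, and those of RNU11 and TERC are the widest.

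The U4 RNA pairs with U6 RNA in the tri-snRNP and leaves the spliceosome when it is activated. RNU4-2 lies on the minus strand of chromosome 12 of GRCh38, from 120291763 to 120291903, and RNU4-1 on the same strand from 120293097 to 120293237. The nearest coordinates of the 2 genes differ by 1194. RNU4-1 stood at 19.8 and 11.4 CPM in WT replicates 1 and 2 and at 18.4 and 13.6 CPM in T4A replicates 1 and 2. The T4A libraries lay inside the WT range, with means of 15.97 ± 3.38 CPM (SD, n = 2) in T4A and 15.6 ± 5.99 CPM in WT. The log2 fold change of RNU4-1 was 0.04 (SE 0.26, 95% interval -0.55 to 0.62, adjusted p = 0.955 by edgeR). RNU4-2, the more highly counted copy, stood at 27.9 and 17.2 CPM in WT and at 31.1 and 22.9 CPM in T4A. The groups overlapped, with means of 22.6 ± 7.57 CPM in WT and 27.0 ± 5.85 CPM in T4A. The log2 fold change of RNU4-2 was 0.26 (SE 0.23, 95% interval -0.27 to 0.78, adjusted p = 0.606 by edgeR). Without T4A replicate 2 it was 0.45 with an adjusted p of 0.0197, in a fit that called 3466 genes in all, while without WT replicate 2 it turned to -0.075 and without T4A replicate 1 it was 0.03. The direction for RNU4-1 turned too, to -0.34 without WT replicate 2 and to -0.19 without T4A replicate 1. Of 86 other rows of the U4 family, mostly pseudogenes, 10 had a count, and together they held 0.672% of the family's counts.

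The U5 RNA holds the exon ends in the spliceosome with its conserved loop. RNU5A-1 (65296051 to 65296166) and RNU5B-1 (65304677 to 65304792) lie on the plus strand of chromosome 15 of GRCh38, and RNU5A-1 lies within PARP16, which is on the other strand. RNU5A-1 stood at 18.1 and 9.38 CPM in WT and at 14.1 and 12.6 CPM in T4A. Its T4A libraries lay inside the WT range, with means of 13.7 ± 6.16 CPM (SD, n = 2) in WT and 13.4 ± 1.03 CPM in T4A. The log2 fold change of RNU5A-1 was -0.04 (SE 0.27, 95% interval -0.65 to 0.57, adjusted p = 0.952 by edgeR). RNU5B-1 stood at 14.3 and 6.78 CPM in WT and at 15.2 and 11.9 CPM in T4A. The groups overlapped here too, with means of 10.5 ± 5.31 CPM in WT and 13.5 ± 2.34 CPM in T4A. The log2 fold change of RNU5B-1 was 0.36 (SE 0.31, 95% interval -0.34 to 1.06, adjusted p = 0.586 by edgeR). It was 0.52 with an adjusted p of 0.0241 without T4A replicate 2 and 0.98 without WT replicate 1, and it turned to -0.10 without WT replicate 2. The family has other copies that were counted: 28 other rows held 56.9% of all U5 counts, with RNU5F-1 foremost at 2249 counts over the 4 libraries.

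The share of a pair's counts that one copy takes does not depend on how the libraries were scaled. These shares were chosen for description after the counts had been seen. The U5 pair is only the 2 U5 genes described here, since 28 other U5 rows held 56.9% of all U5 counts. RNU4-2 took 58.5% (95% Wilson interval 56.2 to 60.7) and 60.3% (57.6 to 63.0) of the U4 pair's counts in the WT libraries and 62.9% (60.5 to 65.2) and 62.7% (60.0 to 65.4) in the T4A libraries. The mean share was 59.4% in WT and 62.8% in T4A, a difference of 3.42 percentage points, and the groups did not overlap, though the counting intervals did. RNU5B-1 took 44.1% (41.4 to 46.9) and 41.9% (38.4 to 45.6) of the U5 pair's counts in WT and 51.9% (48.8 to 55.0) and 48.5% (45.1 to 51.8) in T4A. Its mean share was 43.0 ± 1.55% (SD, n = 2) in WT and 50.2 ± 2.41% in T4A, a difference of 7.14 points, and the groups did not overlap, though the counting interval of T4A replicate 2 overlapped those of both WT libraries. By a two-sided exact permutation test each difference had p = 0.333, the smallest value that 2 libraries against 2 allow, and 0.5 after adjustment over the 3 pairs compared, the third being the U3 pair described with SNORD3A. The intervals cover counting error only.

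**Figure D4:**
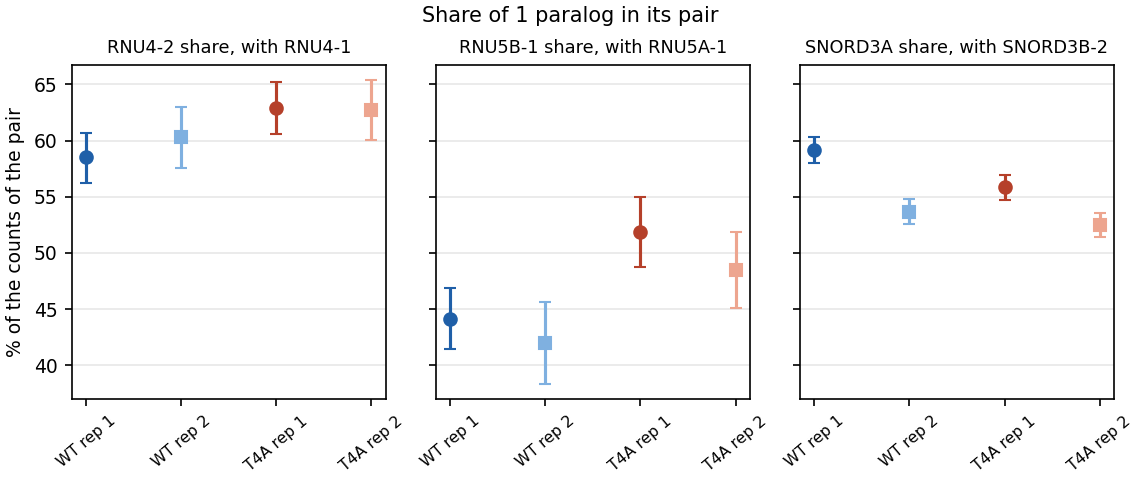
Each point is the percentage of a pair's counts that the named copy took in one library, with its 95% Wilson interval, for the U4, U5 and U3 pairs. Both T4A points lie above both WT points for RNU4-2 and RNU5B-1, while for SNORD3A the groups overlap.

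U7, U11 and U12 belong to particles of low abundance: U7 guides the cut that ends replication-dependent histone mRNAs, and U11 and U12 recognise the splice sites of the minor class of introns. RNU7-1 (chromosome 12 of GRCh38, 6943816 to 6943878, plus strand) and RNU12 (chromosome 22, 42615244 to 42615393, plus strand) were at 0 in every library. A count of 0 of a library allows up to 0.0658 to 0.0904 CPM, but every base of both genes is shared with another gene, so the 0 sets no limit on their RNA. Both are printed to show the bases that a second row also holds, U12 as the first 300 bases of ENSG00000270022 with the bases past its own end in capitals.
RNU7-1: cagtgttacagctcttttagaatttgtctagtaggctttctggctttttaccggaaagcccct
ENSG00000270022: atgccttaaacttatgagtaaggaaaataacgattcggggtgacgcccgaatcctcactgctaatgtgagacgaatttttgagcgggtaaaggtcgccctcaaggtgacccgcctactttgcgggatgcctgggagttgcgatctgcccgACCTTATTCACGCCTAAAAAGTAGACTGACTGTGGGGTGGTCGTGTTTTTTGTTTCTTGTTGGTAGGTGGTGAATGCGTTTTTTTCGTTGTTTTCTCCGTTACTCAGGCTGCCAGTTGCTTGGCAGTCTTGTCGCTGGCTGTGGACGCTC
ENSG00000270022, of 664 bases, runs 514 bases past the end of U12 and stood at 11.2 and 10.3 CPM in WT and at 19.3 and 12.9 CPM in T4A. Both T4A libraries lay above both WT libraries, with a log2 fold change of 0.58 (SE 0.20, unadjusted p = 0.0177, adjusted p = 0.254 by edgeR). This row was looked at after its counts had been seen. C12orf57, which holds RNU7-1, stood at 47.8 and 45.6 CPM in WT and at 54.4 and 60.4 CPM in T4A. Its log2 fold change was 0.30 (SE 0.10, adjusted p = 0.251 by edgeR). How the counting treated reads that lie in both rows is not given, so the counts of C12orf57 do not measure U7.

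RNU11 (chromosome 1 of GRCh38, 28648600 to 28648733, plus strand) shares 131 of its 134 bases with ENSG00000270103, which was at 0 in all 4 libraries. ENSG00000270103 lies wholly inside RNU11, so its 0 sets no limit on the RNA. RNU11 holds 3 bases alone, so its counts may leave out most U11 RNA, and its fold change is uncertain to that extent. The WT libraries gave RNU11 11 and 13 counts, and the T4A libraries gave it 12 and 8. The exact 95% Poisson intervals of these counts, 5.49 to 19.7, 6.92 to 22.2, 6.20 to 21.0 and 3.45 to 15.8, all overlapped. Its log2 fold change was 0.03 (SE 0.58, 95% interval -1.30 to 1.36, adjusted p = 0.984 by edgeR), an interval that spans more than a doubling in either direction.

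U3, the product of SNORD3A, is a box C/D snoRNA needed to process the precursor of 18S rRNA. SNORD3A lies on the plus strand of chromosome 17 of GRCh38, from 19188016 to 19188714. Its row is 699 bases long while RefSeq gives the RNA 217 bases, so 482 bases of the row lie past the mature 3′ end, and 1 count per library does not tell RNA within U3 from RNA past it. The first 300 bases of the row are printed with the bases past the mature end in capitals.
SNORD3A: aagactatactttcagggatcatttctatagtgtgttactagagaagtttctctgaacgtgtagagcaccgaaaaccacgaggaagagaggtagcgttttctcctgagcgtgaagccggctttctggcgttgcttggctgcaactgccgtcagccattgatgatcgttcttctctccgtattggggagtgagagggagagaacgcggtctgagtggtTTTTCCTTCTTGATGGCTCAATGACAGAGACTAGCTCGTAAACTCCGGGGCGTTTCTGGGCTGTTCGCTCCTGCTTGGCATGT
SNORD3A stood at 104 and 88.7 CPM in WT and at 138 and 126 CPM in T4A. Both T4A libraries lay above both WT libraries, with means of 132 ± 8.0 CPM (SD, n = 2) in T4A and 96.3 ± 10.8 CPM in WT. The log2 fold change was 0.45 (SE 0.10, 95% interval 0.22 to 0.69), or 1.37-fold, with an unadjusted p of 0.00215 and an adjusted p of 0.186 by edgeR. SNORD3A passed the threshold by DESeq2 (log2 fold change 0.44, adjusted p = 0.00249) and without T4A replicate 2 (0.50, adjusted p = 5.38e-04), settings that called 867 and 3466 genes in all. Over 12 alternatives its log2 fold change ran from 0.32 to 0.56 and its adjusted p from 5.38e-04 to 0.585. SNORD3B-2, a U3 copy that differs from SNORD3A by A78C in the first 217 bases, stood at 71.7 and 76.5 CPM in WT and at 109 and 114 CPM in T4A. Its log2 fold change was 0.59 (SE 0.09, unadjusted p = 1.17e-04, adjusted p = 0.148 by edgeR). SNORD3A and SNORD3B-2 share 139 bases without a difference, from base 79 to base 217, so the limit on unique reads holds here as for U4. Bases past 217 were not compared, so the shared stretch may be longer. SNORD3A took 59.2% and 53.7% of the counts of this pair in WT and 55.8% and 52.5% in T4A, groups that overlapped (difference -2.26 points, exact permutation p = 0.667).

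SNORD13 makes U13, a small nucleolar RNA that guides acetylation of 18S rRNA. It lies on the plus strand of chromosome 8 of GRCh38, from 33513475 to 33513578. SNORD13 stood at 14.1 and 8.23 CPM in WT and at 15.5 and 14.6 CPM in T4A. Both T4A libraries lay above both WT libraries, by little for WT replicate 1, with means of 11.1 ± 4.13 CPM (SD, n = 2) in WT and 15.0 ± 0.688 CPM in T4A. The log2 fold change was 0.43 (SE 0.23, 95% interval -0.10 to 0.97), or 1.35-fold, and did not pass the test (adjusted p = 0.397 by edgeR). It was above 0 in every alternative, from 0.08 without WT replicate 2 to 0.86 without WT replicate 1, and passed the threshold without T4A replicate 2 (0.47, adjusted p = 0.0449).

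TERC lies on the minus strand of chromosome 3 of GRCh38, from 169764520 to 169765060. Its row is 90 bases longer than the 451-base RNA of RefSeq and shares 438 bases with ENSG00000277925. That gene was at 0 in all libraries, but it lies wholly inside the TERC row, so its 0 sets no limit on the RNA. Of the 103 bases that TERC holds alone, 90 lie past the 3′ end of the RefSeq RNA. The counts of the row therefore do not tell TERC RNA from RNA past its end. TERC had 22 and 13 counts in WT and 7 and 18 counts in T4A, with exact 95% Poisson intervals of 13.8 to 33.3, 6.92 to 22.2, 2.81 to 14.4 and 10.7 to 28.5 counts. The groups overlapped, and the T4A libraries lay further apart, at 0.208 and 0.520 CPM, than the WT libraries, at 0.561 and 0.295 CPM. Its log2 fold change was -0.22 (SE 0.63, 95% interval -1.67 to 1.23, adjusted p = 0.886 by edgeR). The intervals of TERC and RNU11 both reach past a doubling in either direction, so even a change of that size was not resolved for these rows.

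The spread between the WT libraries was wide for 6 of the 8 tested genes. WT replicate 1 was above WT replicate 2 by 1.75-fold for RNU4-1, 1.62-fold for RNU4-2, 1.93-fold for RNU5A-1, 2.11-fold for RNU5B-1 and 1.71-fold for SNORD13, and by 1.17-fold for SNORD3A. On few counts, the WT libraries differed by 1.91-fold for TERC and by 1.05-fold for RNU11. T4A replicate 1 was above T4A replicate 2 for the 6 well-counted genes, by 1.07-fold to 1.36-fold. Looked at after these values were seen, and with 0.5 added to each CPM, WT replicate 1 was at least 1.5 times WT replicate 2 for 5 of the 8 tested genes and for 636 of all genes tested, or 2.73%. Of 166 other tested genes of at most 200 bases, 48 (28.9%) met the same limit. Among these 166 are the 13 tested genes of a list of short genes transcribed by Pol III, of which 10 met the limit. Of the 10 tested genes of a list of other Pol II snRNA and snoRNA genes, 2 (20%) met it. The summed level of the Pol III list was 151 and 80.2 CPM in WT and 150 and 109 CPM in T4A. Examples from the Pol III list are RNY1, a Y RNA gene, at 37.5, 16.2, 33.9 and 23.7 CPM, and RNU6ATAC, of the minor spliceosome, at 14.6, 5.87, 15.4 and 7.63 CPM. The 5 genes above without SNORD3A summed to 94.2 and 53.0 CPM in WT and to 94.3 and 75.5 CPM in T4A. The part of this spread in the comparison of T4A with WT was not tested.

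**Figure D5:**
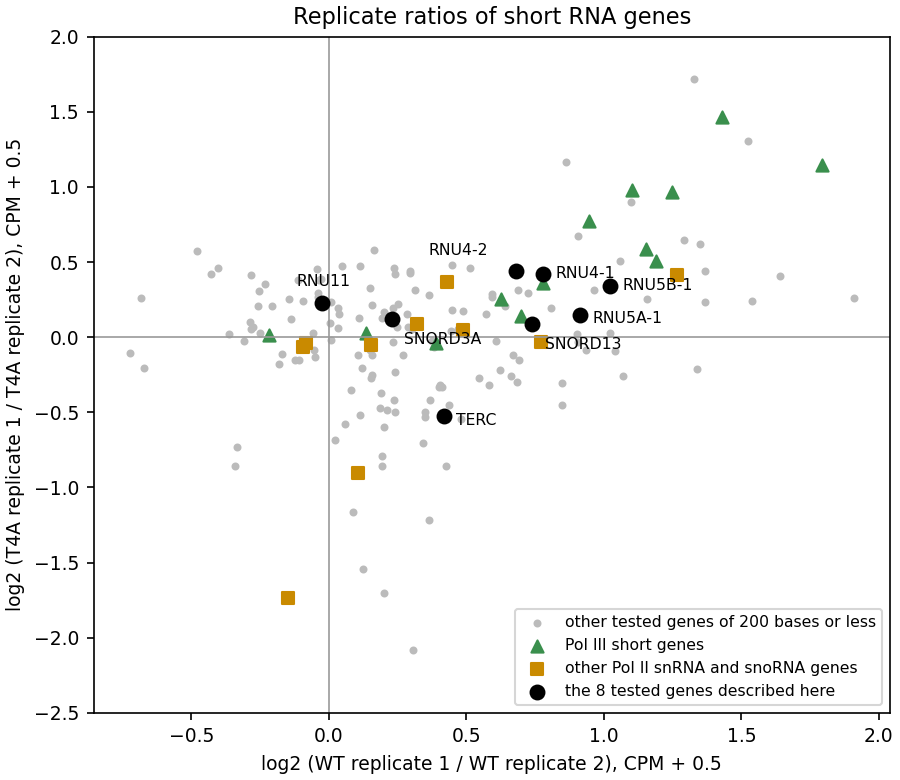
The horizontal axis is the log2 ratio of WT replicate 1 over WT replicate 2 and the vertical axis that of T4A replicate 1 over T4A replicate 2, both of CPM + 0.5, for the 8 genes tested, the Pol III list, other Pol II snRNA and snoRNA genes, and 145 further genes of at most 200 bases (1 more lies off the scale). The 5 short well-counted genes lie to the right of 0.5 and above 0, among the Pol III genes.

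Other Pol II snRNA and snoRNA genes were followed as a list, which was drawn up with earlier results of these data known. Of 29 listed genes 20 had a row, 8 of these were at 0 in all libraries and 10 were tested. None passed the adjusted test, 4 were higher at an unadjusted p below 0.05 (7.45% of all genes) and 0 were lower (8.02% of all genes). Of the 10, 9 lay above 0, beside 11635 of the 23321 genes tested, and the median log2 fold change was 0.39. The 4 were SNORD3B-2 and the U1 genes or variants RNVU1-15, RNU1-1 and RNVU1-18. RNVU1-15 stood at 33.5 and 23.7 CPM in WT and at 42.3 and 41.0 CPM in T4A, a log2 fold change of 0.55 (SE 0.16, adjusted p = 0.229 by edgeR). RNU1-1 stood at 6.10 and 4.40 CPM in WT and at 9.61 and 7.34 CPM in T4A (0.69, SE 0.23, adjusted p = 0.249 by edgeR). RNU1-3 alone lay below 0, at -0.31 (SE 0.54) on 10 to 18 counts. U1 genes have near-identical copies, so their unique counts are uncertain. For the 166 tested genes of at most 200 bases that are not among the 10, which include RNVU1-15, RNU1-1 and RNVU1-18, the median was 0.17, with 14 higher and 1 lower at an unadjusted p below 0.05.

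The genes downstream of the well-measured genes gave no further call. The next gene on the strand after RNU4-2 is PXN, 25992 bases away, with a log2 fold change of -0.04 (SE 0.12, adjusted p = 0.903 by edgeR). Past RNU5A-1 lies ENSG00000259346, 5756 bases away, which had 12 to 23 counts and a log2 fold change of 0.64 (SE 0.56, adjusted p = 0.597 by edgeR). The next gene after RNU4-1 is RNU4-2, described above. The next genes after RNU5B-1 (ENSG00000270690), SNORD3A (ENSG00000236022), SNORD13 (ENSG00000253232), RNU12 (GOLGA2P4) and TERC (RNU6-637P) had too few counts to be tested. After RNU11 lies GMEB1 at 0.02 (SE 0.10), and after RNU7-1 lies PTPN6 at 0.26 (SE 0.14, adjusted p = 0.385 by edgeR). The table counts whole genes, so RNA that runs on past a gene's 3′ end has no count of its own. Such RNA can add to the SNORD3A, TERC, ENSG00000270022 and C12orf57 rows, whose counts do not tell it apart.

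Genes for the proteins that make, end and package these RNAs were counted by function, and in each of the 10 lists no gene passed the adjusted test. The 15 Integrator genes, whose complex cuts snRNA 3′ ends, had a median log2 fold change of -0.24, with 6 lower and 0 higher at an unadjusted p below 0.05, beside 8.02% lower and 7.45% higher over all genes tested. INTS14 had the lowest p of those below 0 (-0.39, SE 0.09, adjusted p = 0.188 by edgeR) and INTS15 of those above (0.15, SE 0.11). Of 7 tested genes for NELF, DSIF and CTD phosphatases, 2 were lower and 0 higher at that level, beside the same 8.02% and 7.45% of all genes, with a median of -0.20. RPAP2, a CTD Ser5 phosphatase, had -0.29 (SE 0.11, adjusted p = 0.271 by edgeR) and SUPT5H 0.12 (SE 0.10). None of the 9 genes for snRNA promoter factors, of the 5 for the little elongation complex or of the 9 for cap binding and snRNA export had an unadjusted p below 0.05. In these 3 lists the medians were -0.03, -0.07 and 0.03, and the genes with the lowest p in each direction were GTF2B (0.33) and SNAPC3 (-0.18), ICE1 (0.03) and ZC3H8 (-0.15), and NCBP2 (0.17) and NCBP3 (-0.10).

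Of 18 tested genes for the SMN complex and Sm proteins, which assemble the snRNP core, 3 lay higher and 1 lower at an unadjusted p under 0.05, with a median of 0.10. Over all genes tested 7.45% were higher and 8.02% lower at that level, shares that also stand beside the box C/D and telomerase counts below. The single lower genes of these lists are near that share. SNRPF had 0.28 (SE 0.08, adjusted p = 0.238 by edgeR) and GEMIN2 -0.54 (SE 0.15, adjusted p = 0.218). Of 8 box C/D snoRNP genes 0 were higher and 1 lower, RUVBL1, an ATPase of snoRNP assembly, at -0.55 (SE 0.09, adjusted p = 0.150 by edgeR), while NOP58, a core protein of U3, had 0.19 (SE 0.12). Of 11 telomerase genes 0 were higher and 1 lower, TERT, the catalytic subunit, at -0.55 (SE 0.24, adjusted p = 0.314 by edgeR), beside ZCCHC8 at 0.14. None of the 4 U7 snRNP genes and none of the 7 genes for proteins of the U11/U12 snRNP reached that level, with medians of 0.01 and 0.03. LSM10 of the U7 particle had -0.46 and SLBP 0.18, and SNRNP48 of the U11/U12 particle had -0.24 and RNPC3 0.13.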

How the data were processed

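The authors deposited a table of raw read counts per Ensembl gene, named for featureCounts with columns for uniquely aligned reads. The submitters' processing notes name FastQC, cutadapt 4.6, STAR 2.7.11b, Picard, deepTools 3.5.6 and GRCh38, with no role or order. The version and settings of the counting are not given in the sources used here. The listed length equals the genomic span of every row, so introns were counted with exons. Of 60708 identifiers, 58700 matched GENCODE v44 lifted to GRCh37, which gave names and transcript sequences, and coordinates are those of the count table (GRCh38). The sequences of the U5 genes are not reported here. RefSeq lengths and the positions of RNU11 and RNU12 are from GRCh38.p14.

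The 4 libraries were grouped by their titles, and T4A was compared with WT by edgeR 4.0.16 (R 4.3.3; TMM, filterByExpr, quasi-likelihood test, Benjamini-Hochberg over 23321 genes), tested on simulated data. SEs are derived from the F statistic. DESeq2 1.42.0, other scalings and filters, a gene length correction, the replicate number as a block, a fold limit of 1.5 and leaving out each library were alternatives. Named are the 10 genes, POLR2A, each gene's next downstream gene on its strand and, per list, the gene of lowest p in each direction. Overlapping genes, paralog shares, replicate ratios, and RNU5F-1, SNORD3B-1, SNORD3C, RNVU1-15, RNU1-1, RNVU1-18, RNY1, RNU6ATAC, LHX1 and COL1A1 were added after their values were seen. Members, lists and tests were chosen with earlier results of these data known.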

Additional observations from a re-analysis of the deposited data

How the results depend on the processing

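The number of genes called between T4A and WT, 1, depended on the processing. It was 195 when libraries were scaled to mitochondrially encoded genes, 150 without the filter on low counts, 533 with the replicate block, 2 with the gene length trend removed and 867 by DESeq2, and it ran from 0 (without WT replicate 2) to 3466 (without T4A replicate 2) when 1 library was left out. It was 333 without T4A replicate 1 and 3 without WT replicate 1. A lone library was assumed to vary like those of the other group. Of the 10 genes described, 1 had an unadjusted p below 0.05. This number was 2 with mitochondrial scaling, 3 with the replicate block and 1 to 4 with 1 library left out. Their median log2 fold change, 0.15, was 0.18 with the replicate block and ran from -0.09 without WT replicate 2 to 0.53 without WT replicate 1.

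With 1 library left out, the log2 fold change ran from -0.34 to 0.48 for RNU4-1, from -0.075 to 0.63 for RNU4-2, from -0.46 to 0.50 for RNU5A-1, from -0.10 to 0.98 for RNU5B-1, from -0.31 to 0.29 for RNU11 and from -1.03 to 0.30 for TERC, so these 6 directions depend on single libraries. RNU5A-1 also turned to 0.0021 with library size scaling and to 0.029 with the replicate block. SNORD3A and SNORD13 were above 0 in every alternative. The replicate block rests on numbers alone, since the deviations of same-numbered libraries correlated at 0.00498, and the cause of its higher count was not tested. Library size scaling moved the median of all genes to 0.05. The filter of at least 10 counts in every library left 6 of the 10 genes.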
